A study of Mus musculus with 6 samples.

Results

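The genes described here are 10 markers of endothelial cells, the cells that line blood vessels, taken by symbol from a count table of 54532 genes from newborn mouse epidermis. All 10 symbols were found in the table. They fall into 7 genes that are largely restricted to endothelium (Cdh5, Kdr, Tek, Tie1, Emcn, Esam and Vwf) and 3 that monocytes, macrophages or granulocytes also express (Pecam1, Eng and Flt1). RNA-seq covered 3 libraries with the Paxbp1 knockout label and 3 with the wild type label. The epidermis was split from the dermis after overnight digestion in Dispase II, and the labels give neither the allele or Cre driver behind the knockout nor the number of animals per library. The series was designed to ask what Paxbp1, which codes for a partner of the transcription factors Pax3 and Pax7, does in epidermal homeostasis.

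Endothelial cells hold together through junction proteins such as VE-cadherin and PECAM-1, and they respond to vascular endothelial growth factor (VEGF) through the receptors coded by Kdr and Flt1 and to angiopoietins through the receptor coded by Tek, with Tie1 as its partner. In skin the vessels run in the dermis, and the epidermis itself has none. Several of these proteins are also found on blood cells: PECAM-1 on platelets, monocytes and neutrophils, VEGF receptor 1 on monocytes and macrophages, and von Willebrand factor in megakaryocytes and platelets.

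Totals ran from 16315317 to 17816327 counts per library. Paxbp1 itself had 2370, 1127 and 1125 counts in the libraries labelled knockout, against 2007, 1159 and 1467 in the wild type libraries. The difference was not called (edgeR log2 fold change 0.10 ± 0.29, adjusted p = 0.783), so the gene total does not check the labels, and every direction below is that of the libraries labelled knockout. Of 10 keratinocyte genes 9 were lower and 1 was not called. Their summed level ran from 4640 to 11800 CPM (counts scaled to a common library size with TMM factors) in the libraries labelled knockout and from 84300 to 140000 CPM in the wild type libraries. The keratin genes named from this list were Krt1 (2720 ± 1260 CPM in the libraries labelled knockout and 30700 ± 8750 CPM in the wild type libraries, SD, n = 3 each) and Krt15 (log2 fold change -6.20 ± 0.57, edgeR adjusted p = 6.41e-06). Keratinocyte genes were thus detected in both groups, at a lower level in the libraries labelled knockout. Both libraries numbered 1 had more genes with a count (24380 and 24236) than the others (22059 to 22556). Several results that change without them are marked below, but not every such change is given.

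Endothelial marker genes were scarce in the wild type libraries and most were far higher in the libraries labelled knockout. Summed over the 10 genes, the counts were 4339, 5265 and 6965 in the libraries labelled knockout, against 150, 109 and 102 in the wild type libraries. Of the 10 genes, 8 passed the filter on low counts and were called higher, at a Benjamini-Hochberg adjusted p under 0.05 in edgeR's quasi-likelihood test over 16471 genes. The same test called 28.7% of all genes higher and 25.1% lower. These shares are the background for the counts of every list below. Tek and Emcn stayed below the filter. Cdh5, Tie1 and Esam had no wild type library with 10 counts, Kdr and Flt1 had 1 and Vwf had 2, so these 6 genes could pass only through the libraries labelled knockout and the count of 8 is a description. A fit with no filter, over 30735 genes, took in all 10 and called the same number higher (8, with 17.3% of all genes called higher). No member was called lower by edgeR with or without the filter, by DESeq2 or by limma-voom, and 0 were lower at an unadjusted p under 0.05 in any of these. In that fit the median log2 fold change was 4.27 over the 10 genes (4.17 with Emcn, which had no wild type count, at its lower bound) and 0.049 over all genes. For 8 of the 10 genes all 3 libraries labelled knockout lay above all 3 wild type libraries, a pattern found in 31.9% of the tested genes, while 30.4% showed the opposite pattern. In whole tissue, more cells of a type and more RNA per cell cannot be told apart.

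**Figure D1:**
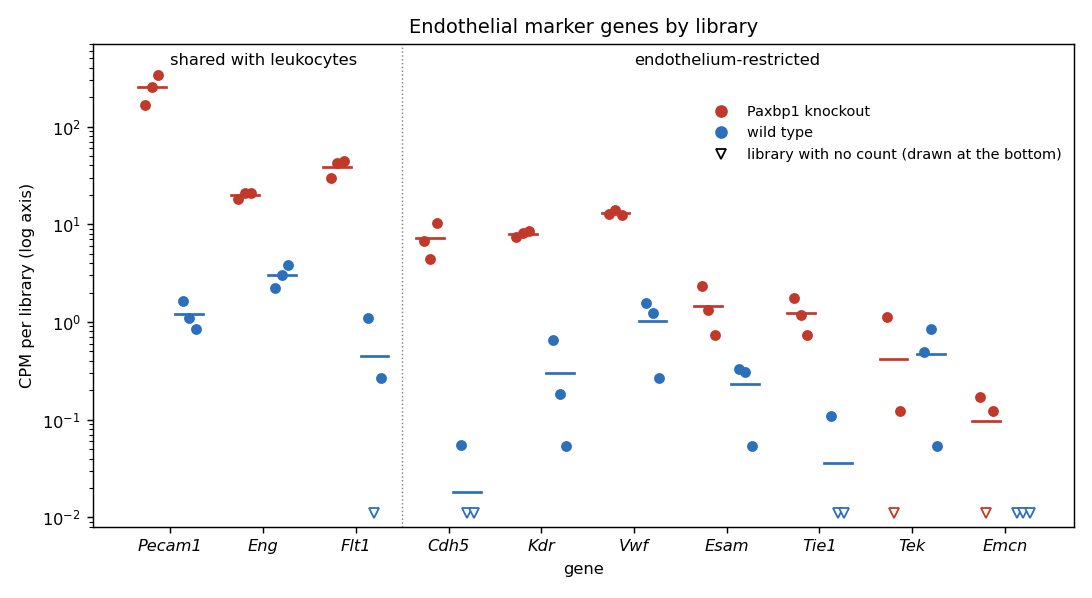
CPM of each gene (x axis) in each library (y axis, log scale), with libraries labelled knockout in red left of wild type libraries in blue, and lines at the group means. The libraries labelled knockout lie above the wild type libraries for 8 genes, while the groups overlap for Tek and Emcn, and open triangles at the bottom mark libraries with no count.

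Among the junction genes, Pecam1 dominated. Pecam1 (ENSMUSG00000020717, chromosome 11, 106654217 to 106750628, minus strand, mm10) codes for the adhesion molecule CD31 at endothelial contacts. It had 2925, 3859 and 5388 counts in the libraries labelled knockout, against 30, 18 and 16 in the wild type libraries. Its level was 251 ± 84.1 CPM in the libraries labelled knockout and 1.20 ± 0.403 CPM in the wild type libraries (SD, n = 3 each), a fitted log2 fold change of 7.70 ± 0.40 (SE, edgeR adjusted p = 2.03e-07). Every library labelled knockout was far above every wild type library.

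Cdh5 (ENSMUSG00000031871, chromosome 8, 104101625 to 104144511, plus strand) codes for VE-cadherin, the adherens junction protein regarded as the most specific marker of the set. It had 120, 68 and 165 counts in the libraries labelled knockout, against 1, 0 and 0 in the wild type libraries. The ratio of summed counts was 384.8 with an exact 95% counting interval of 68.6 to 15200, which covers counting error only. Its fitted log2 fold change of 8.11 ± 0.75 (edgeR adjusted p = 6.72e-06) leans on the prior count that edgeR adds, and was 9.92 without wild type replicate 1, the only wild type library with a read. The level in the libraries labelled knockout, 7.15 ± 2.90 CPM (SD, n = 3), did not follow that of Pecam1 from library to library, with 41.0, 17.6 and 30.6 Cdh5 counts per 1000 Pecam1 counts. Cdh5 was lowest in knockout replicate 2, and Pecam1 in knockout replicate 1.

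Esam (ENSMUSG00000001946, chromosome 9, 37528078 to 37538319, plus strand), whose product sits at endothelial tight junctions and on platelets, had 41, 20 and 12 counts in the libraries labelled knockout, against 6, 5 and 1 in the wild type libraries. Its rise was the least firm of the 8, at a log2 fold change of 2.65 ± 0.72 (edgeR adjusted p = 0.0092). It was still called in all 17 alternatives that could test it, with adjusted p between 0.00307 and 0.0439.

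Both VEGF receptors rose. Flt1 (ENSMUSG00000029648, chromosome 5, 147561604 to 147726011, minus strand) codes for VEGF receptor 1, which binds VEGF-A tightly and signals weakly. It had 524, 644 and 712 counts in the libraries labelled knockout, against 20, 0 and 5 in the wild type libraries. The levels were 38.6 ± 7.81 and 0.452 ± 0.569 CPM (libraries labelled knockout and wild type, SD, n = 3 each), with a log2 fold change of 6.36 ± 0.65 (edgeR adjusted p = 1.34e-05). Kdr (ENSMUSG00000062960, chromosome 5, 75932827 to 75978458, minus strand) codes for VEGF receptor 2, the main signalling receptor. It had 130, 124 and 137 counts in the libraries labelled knockout, against 12, 3 and 1 in the wild type libraries, with a log2 fold change of 4.71 ± 0.60 (edgeR adjusted p = 6.56e-05). The Kdr libraries labelled knockout were almost level with each other, at 7.98 ± 0.571 CPM (SD, n = 3), and no wild type library came near them. Most wild type reads of both receptors were in wild type replicate 1, and without it the log2 fold changes were 8.03 for Flt1 and 6.03 for Kdr.

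The angiopoietin receptor pair did not move together. Tie1 (ENSMUSG00000033191, chromosome 4, 118471191 to 118490061, minus strand), which codes for the partner receptor that binds no angiopoietin by itself, had 31, 18 and 12 counts in the libraries labelled knockout, against 2, 0 and 0 in the wild type libraries. The ratio of summed counts was 33.25 (exact 95% counting interval 8.82 to 281), and the gene was called higher (log2 fold change 4.79 ± 0.93, edgeR adjusted p = 0.00124; 7.39 without wild type replicate 1). Tek (ENSMUSG00000006386, chromosome 4, 94739289 to 94874976, plus strand), which codes for the angiopoietin receptor Tie2, had 20, 0 and 2 counts in the libraries labelled knockout, against 9, 14 and 1 in the wild type libraries. Its groups overlapped, and the ratio of summed counts was 0.999 (0.534 to 1.86). In the fit without a filter Tek was not called (log2 fold change -0.15 ± 0.90, edgeR adjusted p = 0.913, and 0.106 to 0.944 over 7 fits that left out 1 library or both libraries numbered 1). Its sign turned on single libraries: it was -2.73 without knockout replicate 1, which held most of the reads of that group, and 0.62 without wild type replicate 2.

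Eng (ENSMUSG00000026814, chromosome 2, 32646595 to 32682669, plus strand) codes for endoglin, a co-receptor for BMP9 and TGF-beta on endothelium that activated macrophages also carry. It had 319, 320 and 335 counts in the libraries labelled knockout, against 41, 49 and 73 in the wild type libraries. Its level was 19.9 ± 1.60 CPM in the libraries labelled knockout and 3.04 ± 0.819 CPM in the wild type libraries (SD, n = 3 each), where it had more counts than any other of the 10 genes, and the groups did not overlap (log2 fold change 2.71 ± 0.28, edgeR adjusted p = 1.42e-05). The neighbouring gene Fpgs lies on the other strand and shares 61 of the 4048 exon bases of Eng in GENCODE M21. Fpgs had 634 counts over the libraries labelled knockout and 1544 over the wild type libraries. With no strand setting given in the sources used here, reads in that stretch cannot be assigned.

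Vwf (ENSMUSG00000001930, chromosome 6, 125546774 to 125686679, plus strand) codes for von Willebrand factor, the clotting glycoprotein stored in endothelial Weibel-Palade bodies. It had 226, 212 and 200 counts in the libraries labelled knockout, against 29, 20 and 5 in the wild type libraries. The 3 libraries labelled knockout were nearly equal, at 12.8, 13.9 and 12.4 CPM, and the log2 fold change was 3.67 ± 0.49 (edgeR adjusted p = 8.9e-05). Emcn (ENSMUSG00000054690, chromosome 3, 137341067 to 137432185, plus strand) codes for endomucin, a surface sialomucin of veins and capillaries. It had 3, 0 and 2 counts in the libraries labelled knockout, against no count in any wild type library, where 3 counts would be 0.159 to 0.183 CPM. Emcn was thus at the edge of detection in both groups, and was not called in the fit without a filter (edgeR adjusted p = 0.173, and 0.162 to 0.518 over the same 7 fits).

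**Figure D2:**
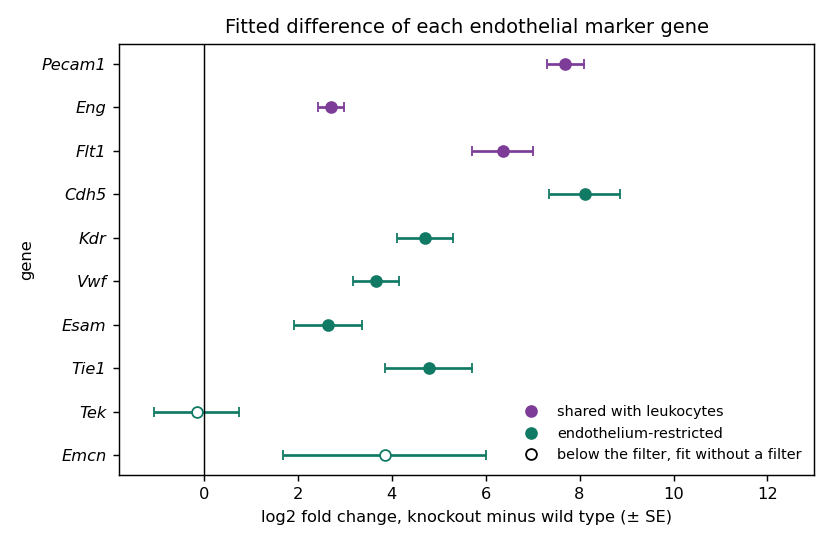
Fitted log2 fold change of each gene, libraries labelled knockout minus wild type (x axis, bars are SE), from edgeR. Filled points passed the filter, and the open points, Tek at -0.15 and Emcn at 3.85, come from the fit without a filter and were not called.

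Windows before the transcription start are shown for 4 genes, the pair of VEGF receptors that rose and the 2 members that were not called, because vascular genes are known as targets of ETS transcription factors. The sequences are the 250 bases before the RefSeq start on GRCm38.p6, which is the mm10 build, read 5′ to 3′ on the gene's strand, with every AGGAAG or CGGAAG, the letters of a common ETS site, and their reverse complements in capitals.
Flt1 (chr5:147726012-147726261, minus strand): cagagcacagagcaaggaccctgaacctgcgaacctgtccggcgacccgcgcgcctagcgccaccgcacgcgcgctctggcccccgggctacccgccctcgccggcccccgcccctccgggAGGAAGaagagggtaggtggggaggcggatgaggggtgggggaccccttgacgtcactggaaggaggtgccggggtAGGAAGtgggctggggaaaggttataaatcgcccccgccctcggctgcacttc
Kdr (chr5:75978456-75978705, minus strand): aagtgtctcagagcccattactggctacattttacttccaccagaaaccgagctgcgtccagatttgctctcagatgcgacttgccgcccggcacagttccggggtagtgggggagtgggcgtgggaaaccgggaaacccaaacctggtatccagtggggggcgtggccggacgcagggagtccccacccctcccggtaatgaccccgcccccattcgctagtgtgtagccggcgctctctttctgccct
Tek (chr4:94739039-94739288, plus strand): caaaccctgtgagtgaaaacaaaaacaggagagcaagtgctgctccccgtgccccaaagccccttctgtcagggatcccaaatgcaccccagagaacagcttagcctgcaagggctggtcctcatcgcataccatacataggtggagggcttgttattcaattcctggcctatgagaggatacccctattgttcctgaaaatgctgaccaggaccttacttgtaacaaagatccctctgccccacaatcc
Emcn (chr3:137340828-137341077, plus strand): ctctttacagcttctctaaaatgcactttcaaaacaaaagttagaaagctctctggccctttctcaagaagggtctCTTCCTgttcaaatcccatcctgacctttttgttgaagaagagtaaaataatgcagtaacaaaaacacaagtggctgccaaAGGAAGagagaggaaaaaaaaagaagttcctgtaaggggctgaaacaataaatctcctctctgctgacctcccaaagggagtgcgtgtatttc

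RefSeq windows were matched for 6 of the 10 genes, and 4 of the 6 held at least 1 of these ETS letters (Flt1, Tie1, Eng and Emcn). Of all 32851 windows of the same length, 39.2% held them. The letters were thus present for Emcn, which was not called, and missing for Kdr, which rose. The GATA letters TGATAA, searched on both strands, were in 0 of the 6 windows and in 7.94% of all windows. A match is only a match of letters.

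Compared per length, in the FPKM deposited by the authors (read counts scaled by gene length and library size), the order of levels differed between the groups. In the libraries labelled knockout Pecam1 was first at 40.1 ± 13.7 FPKM, followed by Eng at 4.89 ± 0.41, Flt1 at 2.84 ± 0.589, Cdh5 at 1.70 ± 0.704, Kdr at 0.879 ± 0.0687 and Vwf at 0.805 ± 0.0414 FPKM (SD, n = 3 each). Esam (0.504 ± 0.275), Tie1 (0.247 ± 0.101), Tek (0.0881 ± 0.13) and Emcn (0.018 ± 0.0161 FPKM) came last. Only Pecam1 from Eng, Eng from Flt1 and Cdh5 from Kdr were apart beyond the range of their libraries, and the other neighbours overlapped. In the wild type libraries Eng was first (0.733 ± 0.204 FPKM) and apart from Pecam1 (0.187 ± 0.0602 FPKM), and every further pair of neighbours with a count overlapped. Tek had 0.0881 ± 0.13 FPKM in the libraries labelled knockout and 0.0968 ± 0.0843 FPKM in the wild type libraries (SD, n = 3 each), and came directly after Pecam1 in the wild type order.

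The make-up of the signal therefore differed. Pecam1 held 70.1%, 77.4% and 80.5% of the summed FPKM of the 10 genes in the libraries labelled knockout, against 19.9%, 13.6% and 11.7% in the wild type libraries. Eng held 11.8%, 9.88% and 7.70% in the libraries labelled knockout, against 41.8%, 56.9% and 82.1% in the wild type libraries. The wild type shares rest on few reads, since wild type replicate 3 had 8 counts over the 7 restricted genes.

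**Figure D3:**
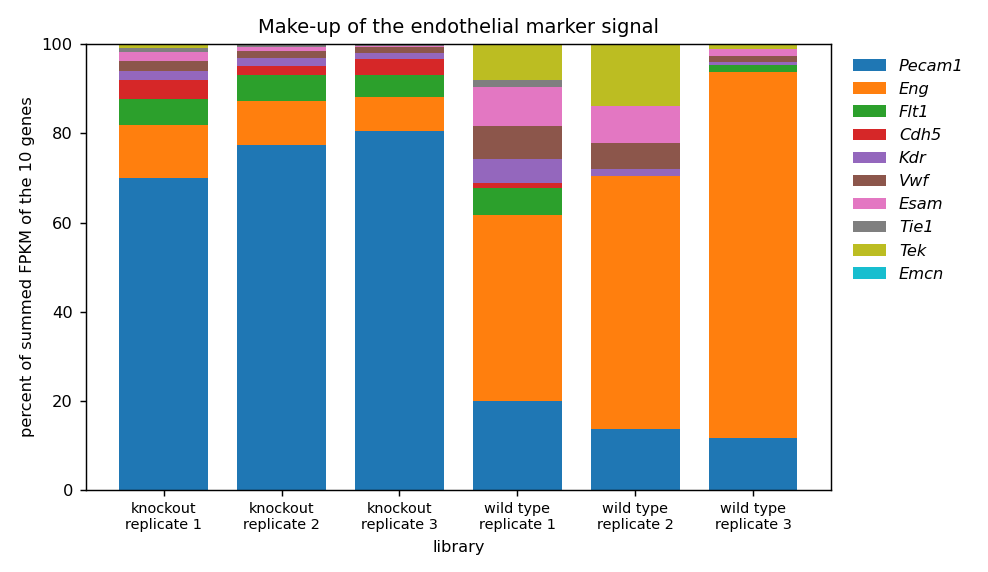
Share of each gene in the summed FPKM of the 10 genes (y axis, percent) for each library (x axis), with the libraries labelled knockout on the left. Pecam1 takes over 70% in each library labelled knockout, and Eng is the largest part of each wild type library.

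The restricted genes and the genes shared with leukocytes were set side by side. All 3 shared genes and 5 of the 7 restricted genes rose. In the fit without a filter the median log2 fold change was 6.35 for the shared genes and 3.85 for the restricted genes (3.65 with Emcn at its lower bound). The 2 groups were mixed gene by gene: the fitted fold of Cdh5 lay within its error of that of Pecam1, and the shared gene Eng had a smaller fold than 4 of the 5 restricted genes that rose. The difference between the groups was not tested. The summed level of the shared genes was 213, 315 and 399 CPM in the libraries labelled knockout, against 4.97, 4.10 and 4.99 CPM in the wild type libraries. The restricted genes summed to 32.3, 28.9 and 32.8 CPM in the libraries labelled knockout, against 3.22, 2.57 and 0.424 CPM in the wild type libraries. Among the libraries labelled knockout the restricted sum was nearly level, while single restricted genes such as Cdh5, Esam and Tie1 varied between libraries. The spread of the shared sum was mostly that of Pecam1, and Eng was nearly level at 18.1, 20.9 and 20.7 CPM.

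Leukocyte genes were higher in the same libraries. All 13 macrophage and monocyte genes were called higher, with a summed level of 10500 to 18800 CPM in the libraries labelled knockout and 489 to 566 CPM in the wild type libraries. Ly6c2 was the only one at 0 in the wild type. Mrc1, the mannose receptor gene, had the largest mean CPM of the list (6060 ± 1660 CPM in the libraries labelled knockout and 6.44 ± 1.19 CPM in the wild type libraries, SD, n = 3 each). Cd163, a scavenger receptor gene, had the smallest adjusted p (edgeR adjusted p = 1.65e-07) and 1 count in all over the wild type libraries. Of 10 neutrophil genes 7 were called higher and 3 stayed below the filter, with sums of 3400 to 8340 CPM in the libraries labelled knockout and 2.18 to 3.22 CPM in the wild type libraries, where Ly6g was at 0. S100a9 and the receptor gene Csf3r were named by the same rule (log2 fold changes 13.71 ± 0.85 and 8.58 ± 0.37, edgeR adjusted p = 4.31e-07 and 1.65e-07). S100a9 was 14.86 without wild type replicate 2 and 13.11 without wild type replicate 3. Over all genes tested, 28.7% were called higher. Cd163, Ly6c2 and S100a9 had no wild type library with 10 counts and could pass the filter only through the libraries labelled knockout. The counts of 13 and 7 are therefore descriptions. Without both libraries numbered 1, the number of neutrophil genes called higher was 8.

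Pecam1 counts per count of the leukocyte gene Ptprc (CD45) were 0.405, 0.476 and 0.534 in the libraries labelled knockout, against 0.0683, 0.0557 and 0.0411 in the wild type libraries. The part of leukocytes in the level of Pecam1, Eng and Flt1 was not tested.

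Platelet and megakaryocyte genes, whose cells also carry Pecam1, Vwf and Esam products, were higher too. Of 11 such genes 6 were called higher, 1 (Gp1ba) was not called and 4 stayed below the filter. Their sum was 1080 to 1590 CPM in the libraries labelled knockout and 6.79 to 9.77 CPM in the wild type libraries, where Gp6, Gp9 and Treml1 were among those at 0. Most of these counts in the libraries labelled knockout were of Pf4, a chemokine gene that macrophages can also express (1210 ± 261 CPM in the libraries labelled knockout and 1.28 ± 1.03 CPM in the wild type libraries, SD, n = 3 each). The receptor gene Itgb3 had the smallest adjusted p (log2 fold change 6.80 ± 0.31, edgeR adjusted p = 1.65e-07). Gp1bb, a subunit of the platelet receptor for von Willebrand factor, was at 0 in every library labelled knockout and stayed below the filter. In the fit without a filter Gp1bb was not called (log2 fold change -2.6, edgeR adjusted p = 0.372). That fit called 9 genes of the list higher and 0 lower, and 8 and 0 without both libraries numbered 1. Gp9 was among the higher ones (edgeR adjusted p = 1.21e-05). The call of Gp5 was lost without knockout replicate 2 (edgeR adjusted p = 0.0526), wild type replicate 2 (0.0676) or wild type replicate 3 (0.0583). The part of platelet RNA in the levels of Vwf, Esam and Pecam1 was not tested.

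Dermal fibroblast genes, which mark the layer that carries the vessels, rose for 8 of the 10 listed and fell for 2. Their sum ran from 3690 to 9430 CPM in the libraries labelled knockout and from 975 to 1020 CPM in the wild type libraries. No gene of the list was at 0 in either group. Most of the wild type sum was Postn, at 544 ± 20.5 CPM (SD, n = 3). Col1a1 had a mean of 7.82 CPM and Lum of 0.418 CPM in the wild type libraries. The collagen gene Col1a1 (log2 fold change 8.34 ± 1.11, edgeR adjusted p = 9.26e-05; 10.60 without wild type replicate 1 and 9.33 with the replicate block) and the proteoglycan gene Lum (8.61 ± 0.52, edgeR adjusted p = 3.94e-07) rose. The matrix gene Postn fell (-2.91 ± 0.26, edgeR adjusted p = 5.73e-06). The part of dermis left on the tissue in the endothelial levels was not tested.

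**Figure D4:**
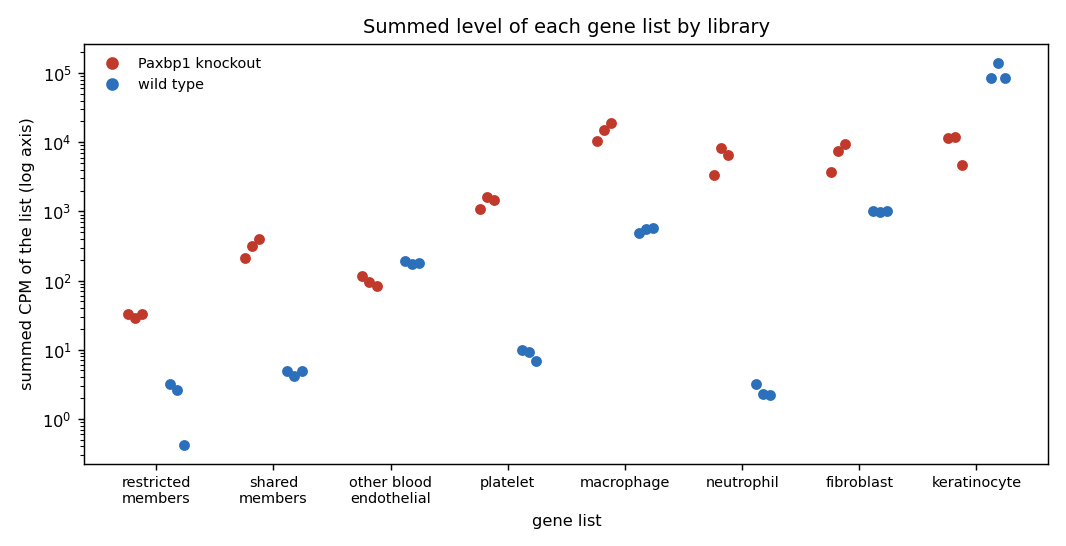
Summed CPM of each gene list (y axis, log scale) in each library, with libraries labelled knockout in red left of wild type libraries in blue. The restricted genes sum to 28.9 to 32.8 CPM in the libraries labelled knockout and the macrophage list to 10500 to 18800 CPM. The sums of the keratinocyte list and of the other blood endothelial genes are lower there than in the wild type libraries. Ephb4 alone holds most of the wild type sum of the other blood endothelial genes, of which 7 were called higher and 3 lower.

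A wider list of 28 other blood endothelial genes moved in both directions. Of these, 7 were called higher and 3 lower, 5 were not called and 13 stayed below the filter. Over all genes tested, 28.7% were called higher and 25.1% lower. The median log2 fold change was 1.60 over the 15 tested genes of the list against -0.029 over all tested genes. The list summed to 83.1 to 118 CPM in the libraries labelled knockout and to 174 to 190 CPM in the wild type libraries, and Ephb4 held most of the wild type sum. The higher genes were Erg, Ecscr, Cd34, Icam2, S1pr1, Tal1 and Gja5, of which Tal1, Cd34, S1pr1 and Icam2 are also known from blood cells or their progenitors. Erg, an ETS factor gene of endothelium and megakaryocytes, had 26, 16 and 56 counts in the libraries labelled knockout, against none in any wild type library, and was at least 35.6-fold higher, with 3 counts in all taken as the wild type floor. Without knockout replicate 3, which held 56 of its 98 counts, Erg was at least 22.7-fold higher. Tal1, a blood and endothelial transcription factor gene, had the smallest adjusted p of the rises (log2 fold change 4.98 ± 0.53, edgeR adjusted p = 1.76e-05).

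The lower genes were Sox7, Cyyr1 and Ephb4. Cyyr1 had 3, 3 and 2 counts in the libraries labelled knockout, against 24, 19 and 11 in the wild type libraries. It was near the floor and could pass the filter only through the wild type libraries (log2 fold change -2.59 ± 0.65, edgeR adjusted p = 0.00586). Sox7, a SoxF transcription factor gene, had 126, 84 and 55 counts in the libraries labelled knockout, against 395, 492 and 450 in the wild type libraries (log2 fold change -2.23 ± 0.30, edgeR adjusted p = 0.000102). Ephb4, the ephrin-B2 receptor gene used as a vein marker that epithelia also express, had the largest mean CPM of the list (36.5 ± 12.0 CPM in the libraries labelled knockout and 131 ± 8.48 CPM in the wild type libraries, SD, n = 3 each), and fell by 1.85 ± 0.25 on the log2 scale (edgeR adjusted p = 0.000114). In both genes every library labelled knockout was below every wild type library. With the replicate numbers as a block 8 genes were called higher, Plvap being added (edgeR adjusted p = 0.0295), and 5 were called lower. The number lower was 6 without knockout replicate 1 or without both libraries numbered 1.

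Genes below the filter included several known as endothelium-restricted. The tight junction gene Cldn5 had 16, 9 and 0 counts in the libraries labelled knockout, against 2, 0 and 0 in the wild type libraries. Robo4 had 17, 0 and 2 counts in the libraries labelled knockout, against 3, 0 and 0 in the wild type libraries. Adgrl4 had 10, 1 and 0 counts in the libraries labelled knockout and Myct1 had 0, 1 and 1, and neither had a wild type count. Ptprb, the phosphatase gene that restrains Tie2, had 11, 4 and 1 counts in the libraries labelled knockout, against 12, 1 and 3 in the wild type libraries. For Cldn5, Robo4 and Adgrl4, as for Tek, knockout replicate 1 held most of the reads of its group. In the fit without a filter Cldn5 was called higher (log2 fold change 3.49 ± 1.31, edgeR adjusted p = 0.0256), but not without knockout replicate 1 (0.201), knockout replicate 2 (0.0748), wild type replicate 2 (0.116), wild type replicate 3 (0.12) or both libraries numbered 1 (0.0944). Without wild type replicate 1 its log2 fold change was 6.08. Sox18, also below the filter, had 8, 7 and 4 counts in the libraries labelled knockout, against 58, 7 and 11 in the wild type libraries. It was called lower in the fit without a filter (log2 fold change -1.84 ± 0.72, edgeR adjusted p = 0.0354). That call was lost without knockout replicate 3 (0.116), wild type replicate 1 (0.785) or both libraries numbered 1 (0.713). Robo4, Adgrl4, Myct1 and Ptprb were not called in that fit (edgeR adjusted p = 0.136, 0.0527, 0.357 and 0.96). Adgrl4 was called there without knockout replicate 2 (0.0464) or knockout replicate 3 (0.036), and Robo4 without wild type replicate 1 (0.0371).

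The ligands that act on these receptors were not uniformly changed. Of 18 vascular ligands and co-receptors 6 were called higher and 2 lower, 6 were not called and 4 stayed below the filter (median log2 fold change 0.54 over the 14 tested). A further gene, the semaphorin gene Sema3e, was called lower with the replicate block (edgeR adjusted p = 0.0311), without knockout replicate 1 (0.0115) and without both libraries numbered 1 (0.0416). Of the 12 genes of VEGF and Tie signalling outside the 10 markers, 8 were tested, and 2 were called higher and 2 lower. Over all genes tested, 28.7% were called higher and 25.1% lower, so the counts of both lists are descriptions. Vegfa, the main endothelial growth factor gene and the one with the largest mean CPM, had 2420, 1724 and 1769 counts in the libraries labelled knockout, against 3266, 2407 and 2640 in the wild type libraries (log2 fold change -0.37 ± 0.21, edgeR adjusted p = 0.156). With upper-quartile scaling it was called lower (log2 fold change -0.56, adjusted p = 0.0416).

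Vegfd, a ligand of the lymphatic receptor Flt4, fell, with 29, 43 and 32 counts in the libraries labelled knockout, against 301, 279 and 270 in the wild type libraries (log2 fold change -2.89 ± 0.30, edgeR adjusted p = 1.41e-05), and Vegfb fell too (-1.44 ± 0.21, edgeR adjusted p = 0.000208). Pgf, which codes for placental growth factor, a ligand of VEGF receptor 1, rose, with 263, 376 and 274 counts in the libraries labelled knockout, against 38, 43 and 31 in the wild type libraries (3.15 ± 0.32, edgeR adjusted p = 1.16e-05). The co-receptor gene Nrp1, which macrophages also express, reached 250 ± 80.2 CPM in the libraries labelled knockout, against 8.95 ± 1.80 CPM in the wild type libraries (SD, n = 3 each), a log2 fold change of 4.80 ± 0.31 (edgeR adjusted p = 5.59e-07). Angpt2, the angiopoietin gene of activated endothelium, had 12.6 ± 3.69 CPM in the libraries labelled knockout and 13.8 ± 2.71 CPM in the wild type libraries (SD, n = 3 each; edgeR adjusted p = 0.734).

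Genes of activated endothelium were higher for all 7 of the 10 that passed the filter, where 28.7% of all genes tested were called higher. Vcam1 and Ackr1 had no wild type library with 10 counts and could pass only through the libraries labelled knockout. The count of 7 is thus a description, and it was 8 without both libraries numbered 1. The list summed to 234 to 271 CPM in the libraries labelled knockout and to 53.2 to 60.5 CPM in the wild type libraries. Icam1, with the largest mean CPM of this list and expressed by keratinocytes and leukocytes as well, had 61.6 ± 6.77 CPM in the libraries labelled knockout and 33.1 ± 0.329 CPM in the wild type libraries (SD, n = 3 each), a log2 fold change of 0.90 ± 0.19 (edgeR adjusted p = 0.00231). Vcam1 had 228, 353 and 311 counts in the libraries labelled knockout, against 6, 3 and 2 in the wild type libraries. The selectin genes, whose products let leukocytes roll on vessels, stayed below the filter: Selp had 8, 15 and 27 counts and Sele 3, 1 and 6 in the libraries labelled knockout, with no wild type count of either. In the fit without a filter Selp was called higher (edgeR adjusted p = 3.9e-06) and Sele was not (0.059). Ackr1, a chemokine receptor gene of venules and red cells, had 20, 14 and 15 counts in the libraries labelled knockout and none in the wild type (at least 17.8-fold higher).

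**Figure D5:**
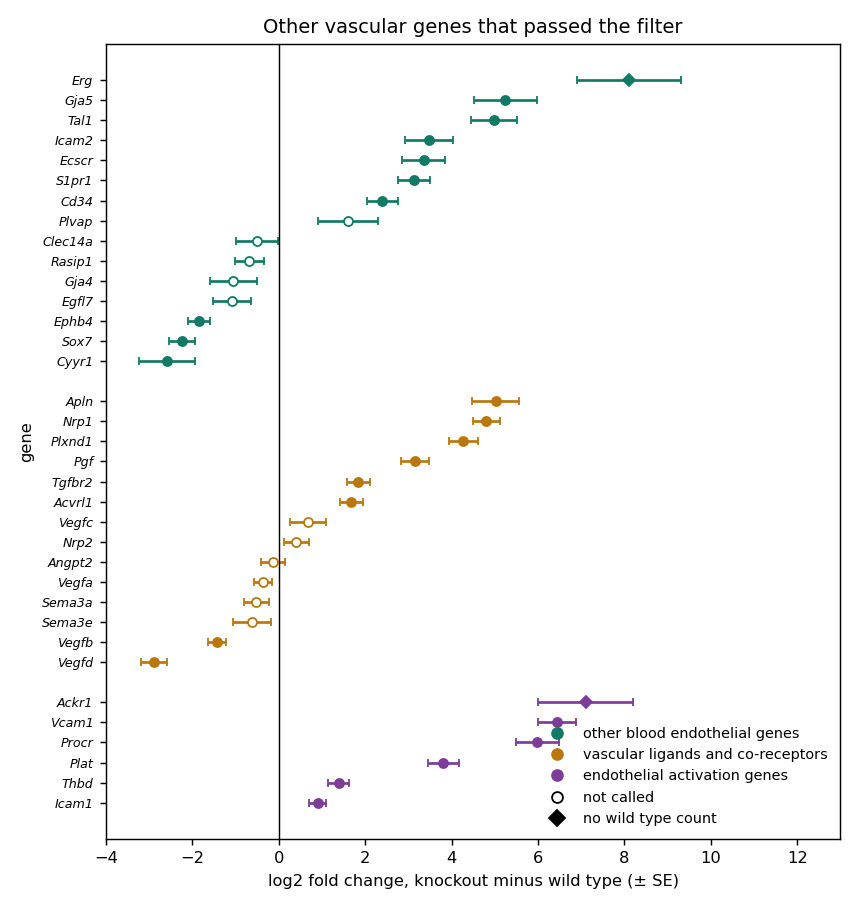
Fitted log2 fold change, libraries labelled knockout minus wild type (x axis, bars are SE), of genes of 3 vascular lists that passed the filter, of which 1 is not drawn. Filled points were called, open points were not, and diamonds are genes with no wild type count, whose fitted value depends on the prior count. Called genes lie on both sides of 0 among the other endothelial genes and the ligands, and on the higher side for the activation genes. Of the activation genes, Vcam1 and Ackr1 could pass the filter only through the libraries labelled knockout.

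Among the tested protein-coding genes with the profile closest to Cdh5, by the root-mean-square difference of centred log2(CPM + 0.5) over the 6 libraries, were Camk2a (0.15) and Cd180 (0.19), out of 4340 genes within 4-fold of its mean level. For Pecam1 they were Fgr (0.14), Lox (0.19) and Serpina3n (0.21), among 6285 genes. All 5 of these genes were called higher, and the likeness describes 6 libraries in 2 separate groups and nothing more. The added 0.5 sets most of the wild type value of Cdh5, whose mean there was 0.0182 CPM. Fitted log2 fold changes were 4.77 for Camk2a and 4.02 for Cd180, against 8.11 for Cdh5.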

How the data were processed

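The authors deposited whole-number read counts per gene and FPKM for 6 libraries. The build mm10, the aligner HISAT2 (2.0.5) and the counter featureCounts (1.5.0-p3) are listed, per the submitters' processing notes. For strand setting, annotation release and other parameters, the sources used here state nothing. The deposited FPKM equal counts over gene length and library total, times 1 factor per library (0.854 to 1.12). Every line named a gene.

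The counts were tested with edgeR 4.0.16 in R 4.3.3 (TMM, expression filter with minimum count 10 and minimum total 15, robust quasi-likelihood test, genotype only), with Benjamini-Hochberg adjustment over all 16471 genes tested. SE was derived from the fold change and the F statistic (absolute log2 value divided by root F). CPM use TMM factors, and the genes tested held at least 99.7% of each library's counts. Intervals and floors (3 counts) cover counting error only. Labels do not say whether libraries came from separate animals, so p-values measure the spread between libraries. The test was checked on simulated counts. Libraries of a group differed by more than sampling noise (chi-square per degree of freedom 29.8 to 80.5).

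The 10 genes, their division and the 13 lists were chosen with earlier results of these data known. Named from each list were the member with the largest mean CPM and the called member with the smallest adjusted p in each direction; other list genes were chosen after their values were seen. A few genes that these rules name are not reported here. Vegfd was listed under an older symbol and matched through RefSeq (GRCm38.p6). Titles number the replicates. Same-numbered libraries deviated together (r = 0.23, 0.34 and 0.18, each over 0.1), so the numbers were taken as pairs and the replicate block was run as an alternative.

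The alternatives comprised scaling by RLE, upper quartile or plain library size, no filter, a filter of 1 CPM in 3 libraries, DESeq2 1.42.0, limma-voom (limma 3.58.1), no robust estimation, the block, each library left out, limma-trend on FPKM (log2, pseudocount 1 or 0.1), another division of the genes and, chosen after seeing the data, both libraries numbered 1 left out.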

Additional observations from a re-analysis of the deposited data

How the results depend on the processing

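The 8 called genes kept their direction and their call in every alternative that could test them, and the number of members called higher was 8 in each except 6 with the stricter filter, which left Tie1 and Esam untested. With the replicate block it was also 8, and the paired fit changed no call of a member. The median log2 fold change over all genes was -0.183 with library-size and -0.222 with upper-quartile scaling, against -0.029 with TMM. Of the restricted genes 3 were called higher under the stricter filter, where fewer were tested. With Tek, Esam and Vwf counted among the shared genes, 3 restricted and 5 shared genes were higher, by construction. The other blood endothelial genes called lower numbered 5 with the replicate block, 5 with upper-quartile scaling and 6 without both libraries numbered 1, and 3 to 6 over the single left-out libraries (the cause was not tested). Members called higher stayed at 8 over those left-outs, shared genes at 3 and restricted genes at 5. Tek without a filter turned positive without knockout replicate 2 (0.41), knockout replicate 3 (0.27) or wild type replicate 2 (0.62), and was called in none. Leaving out wild type replicate 1 raised the folds of Cdh5, Kdr, Flt1 and Tie1 by over 1.5 times, and limma-voom gave 7.40 for Cdh5 and 7.41 for Flt1. On log2(FPKM + 1) the fold changes of low genes shrink (0.31 for Tie1). Depth limits Tek, Emcn and the wild type level of Cdh5 and Tie1, which rest on few reads.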

Other observations

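Of 8 lymphatic endothelial genes 2 were called higher, 2 tested ones were not called and 4 symbols stayed below the filter. Of those below it, Mmrn1, Ccl21a and Ccl21b had no wild type count. Ccl21b and an entry of Ccl21a had no count in any library. The list summed to 321 to 491 CPM in the libraries labelled knockout and to 13.4 to 21.3 CPM in the wild type libraries, nearly all of it Pdpn. Lyve1, a hyaluronan receptor gene of lymphatic vessels and tissue macrophages, rose (84, 41 and 130 counts in the libraries labelled knockout, against 3, 1 and 0 in the wild type libraries; log2 fold change 5.98 ± 0.77, edgeR adjusted p = 7.12e-05; 7.17 without wild type replicate 1). Pdpn, which codes for podoplanin and is also made by keratinocytes, fibroblasts and macrophages, had the largest mean CPM of the lymphatic list and rose (397 ± 82.9 CPM in the libraries labelled knockout and 13.5 ± 4.24 CPM in the wild type libraries, SD, n = 3 each; edgeR adjusted p = 6.24e-07). The lymphatic transcription factor gene Prox1 was not called (6, 17 and 33 counts in the libraries labelled knockout, against 35, 9 and 30 in the wild type libraries; edgeR adjusted p = 0.799), and the lymphatic receptor gene Flt4 had 4, 0 and 4 counts in the libraries labelled knockout, against 1, 0 and 0 in the wild type libraries.

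Of 11 pericyte and smooth muscle genes 5 were called higher and 2 lower. Their sums were 252 to 294 CPM in the libraries labelled knockout and 212 to 295 CPM in the wild type libraries. Most of the wild type sum was Notch3 and Mcam, the 2 lower genes, at means of 120 and 89.3 CPM. In the libraries labelled knockout Notch3 and Mcam had means of 42.5 and 48.8 CPM. Acta2, the smooth muscle actin gene that myofibroblasts also express, had the smallest adjusted p of the rises (95.6 ± 36.9 CPM in the libraries labelled knockout and 0.508 ± 0.0914 CPM in the wild type libraries, SD, n = 3 each; edgeR adjusted p = 2.44e-07). Notch3 and Mcam fell (log2 fold changes -1.49 ± 0.49 and -0.87 ± 0.25, edgeR adjusted p = 0.0243 and 0.0138). Notch3 was not called without knockout replicate 2 (0.0557), knockout replicate 3 (0.0873) or wild type replicate 1 (0.0859), and was -2.44 without knockout replicate 1, while Mcam was not called without wild type replicate 1 (0.0532). Pdgfrb was among the higher genes (log2 fold change 8.36, and 12.27 without both libraries numbered 1). The pericyte gene Rgs5 had 4, 5 and 11 counts in the libraries labelled knockout, against 6, 0 and 0 in the wild type libraries. Rgs5, Kcnj8 and Abcc9 stayed below the filter. In the fit without a filter Kcnj8 and Abcc9 were called higher (log2 fold changes 5.49 and 6.06, edgeR adjusted p = 1.17e-05 and 0.00204). Rgs5 was not called there (0.24), but was called without wild type replicate 1 (0.0263) or both libraries numbered 1 (0.0144).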
